A study of Mus musculus with 10 samples.

Results

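The genes described here make the red cell: the skeleton and surface proteins of its membrane, the enzymes of heme synthesis, the proteins that bring in iron, and the regulators that switch these genes on. Of 34 genes listed by name, 32 were measured, out of 22180 genes tested on the same arrays. Each was read by its probe set with exactly 1 gene symbol, or by the brightest such set where there were several. Epb41 has no probe set with its symbol, and Alas2 has only a set that carries a second symbol. The expression of neither was analysed here. By class there were 5 membrane skeleton genes, 6 surface protein genes, 6 heme synthesis genes, 3 iron uptake genes, 8 regulators and 4 enzymes or other genes.

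Portal tracts, the regions of liver around the portal vein and bile ducts, were captured by laser from frozen liver sections of mice aged 1 week, with 12 to 20 tracts per replicate, and their RNA was hybridised to single-colour arrays. Jag1+/-Rfng+/- samples (5 arrays) carry 1 mutant allele each of Jag1, a Notch ligand, and of Rfng, a fringe glycosyltransferase that modifies Notch; the type of either allele and the strain are not given in the sources used here. Control samples (5 arrays) are labelled only as control, of strain C57Bl/6J. No label says that the samples are separate mice, so every p-value measures the spread between these samples.

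The fetal liver is the main site of red cell formation before birth, and islands of erythroblasts remain in it for a short time afterwards. An erythroblast anchors a spectrin mesh under its membrane through ankyrin, protein 4.2 and the anion exchanger band 3, and makes heme in a chain of enzymes that runs through mitochondria and cytosol. GATA1 and KLF1 bind the promoters and enhancers of most of these genes, while the heme enzymes are also used by hepatocytes, which need heme for their cytochromes.

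Jag1+/-Rfng+/- replicate 5 stood apart from the other arrays: its correlation across probe sets with each other array was 0.956 to 0.963, against 0.969 to 0.987 for pairs of the remaining 9. Because its sample name ends in excl, a word that no label explains, results are given with and without it. All 10 arrays had a median log2 value of 3.22 to 3.30. Y-linked genes on the 4 arrays with high Xist, and Xist on the other 6, read 1.82 to 2.91, which is the range in which an absent gene can lie. Of the members, Gata1 lay at or below 2.91 on 7 arrays, Tal1 on 5, and Nfe2 and Car1 on 1 each, and the other 28 on none. Rfng averaged 4.36 ± 0.16 in Jag1+/-Rfng+/- and 4.82 ± 0.20 in control arrays, and Jag1 averaged 4.39 ± 0.63 in Jag1+/-Rfng+/- and 5.72 ± 0.93 in control arrays (log2, SD, n = 5 each).

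The promoter windows below are shown because they are the stretches on which GATA1 and KLF1 could act. They are the 250 bases before the annotated start, from RefSeq on GRCm38.p6, 5′ to 3′ on the gene's strand. Add2, Kel and Hemgn are the genes of the membrane skeleton, surface and regulator classes with the highest values on Jag1+/-Rfng+/- replicate 5 relative to the 4 other Jag1+/-Rfng+/- arrays, among genes with 1 window in the table. Cpox and Urod are the heme synthesis genes with the highest and the lowest such value among genes with 1 window. Capitals mark matches, on either strand, to the GATA motif AGATAA, to its form with a final G (AGATAG), its form with a first T (TGATAA) and the form with both (TGATAG), and to CCNCNCCC, a loose form of the CACC box that KLF1 binds. The Add2 window is chr6:86028431-86028680 (plus strand), the Kel window chr6:41704326-41704575 (minus strand) and the Hemgn window chr4:46404184-46404433 (minus strand). The Cpox window is chr16:58669958-58670207 (plus strand) and the Urod window chr4:116994414-116994663 (minus strand).
Add2: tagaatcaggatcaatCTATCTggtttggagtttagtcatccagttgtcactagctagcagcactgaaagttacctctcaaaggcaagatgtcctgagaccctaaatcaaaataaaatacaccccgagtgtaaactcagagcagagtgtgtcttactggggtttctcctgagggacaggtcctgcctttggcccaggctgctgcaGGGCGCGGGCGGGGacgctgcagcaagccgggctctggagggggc
Kel: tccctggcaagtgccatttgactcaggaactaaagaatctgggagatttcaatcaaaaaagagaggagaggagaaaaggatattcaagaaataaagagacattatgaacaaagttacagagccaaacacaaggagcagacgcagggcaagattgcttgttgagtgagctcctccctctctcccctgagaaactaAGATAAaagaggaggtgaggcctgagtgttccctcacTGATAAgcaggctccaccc
Hemgn: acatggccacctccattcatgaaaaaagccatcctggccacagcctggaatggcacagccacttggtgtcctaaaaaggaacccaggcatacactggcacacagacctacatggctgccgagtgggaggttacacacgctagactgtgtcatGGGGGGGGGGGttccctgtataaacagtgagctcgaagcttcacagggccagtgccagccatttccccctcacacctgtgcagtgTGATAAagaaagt
Cpox: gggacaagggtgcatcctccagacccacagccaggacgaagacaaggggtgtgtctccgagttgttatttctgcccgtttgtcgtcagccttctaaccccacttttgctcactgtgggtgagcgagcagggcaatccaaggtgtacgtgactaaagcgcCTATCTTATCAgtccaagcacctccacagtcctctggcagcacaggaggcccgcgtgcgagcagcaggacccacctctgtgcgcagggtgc
Urod: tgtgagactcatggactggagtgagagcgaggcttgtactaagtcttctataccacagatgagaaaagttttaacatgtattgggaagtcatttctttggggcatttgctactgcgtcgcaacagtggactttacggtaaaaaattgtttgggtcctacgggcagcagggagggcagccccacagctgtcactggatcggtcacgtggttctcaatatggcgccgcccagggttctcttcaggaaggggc
Kel holds 2 GATA matches and Hemgn 1 GATA match close to the start, Cpox holds 2 that overlap, and the Urod window holds neither motif. The 4 CACC matches of Hemgn overlap in 1 run of G. Of the 34 listed genes, 27 had at least 1 window in the table, giving 37 windows. Epb41 and Alas2, whose expression was not analysed, are among these 27. A GATA motif was present in 19 of these 37 windows (51.4%), against 26.5% of all 32851 windows of the table. By class it was present in 5 of 6 windows of surface protein genes, 6 of 8 of regulators, 3 of 6 of membrane skeleton genes, 3 of 8 of heme synthesis genes, 1 of 5 of iron uptake genes and 1 of 4 of the enzymes and others. CCNCNCCC was present in 23 of 37 windows (62.2%), against 45.9% of all windows. Both motifs were present in 9 of 37 (24.3%), against 8.19% of all windows. A match is a string of letters and is not a measured site.

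No erythroid gene passed the limma test between Jag1+/-Rfng+/- and control portal tracts. Of the 32 measured, 0 passed an adjusted p of 0.05 (0.00902% of all genes did), and the lowest adjusted p was 0.768, for Tfr2. At an unadjusted p under 0.05, 0 were higher and 0 lower, against 2.98% and 3.79% of all genes. An exact permutation test over the 252 splits of the arrays put 0 of them under 0.05, with a lowest exact p of 0.119, for Tfr2 (two-sided). Over all genes, the same exact test put 3.12% under 0.05 and higher and 3.44% under 0.05 and lower. By sign alone, 31 of the 32 had a higher mean in Jag1+/-Rfng+/- and 1, Bpgm, a lower one, against 10766 of all 22180 genes higher. Their median difference was 0.43 log2, beside -0.01 over all genes. The median difference was 0.64 for the membrane skeleton, 0.47 for surface proteins, 0.46 for regulators, 0.29 for iron uptake, 0.20 for heme synthesis and 0.19 for the enzymes and others. The 2 groups overlapped for all 32 genes, a count close to the background, since only 0.618% of all genes were higher and 0.766% lower without overlap. In such captured tissue, fewer cells of a type and less RNA per cell cannot be told apart.

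**Figure D1:**
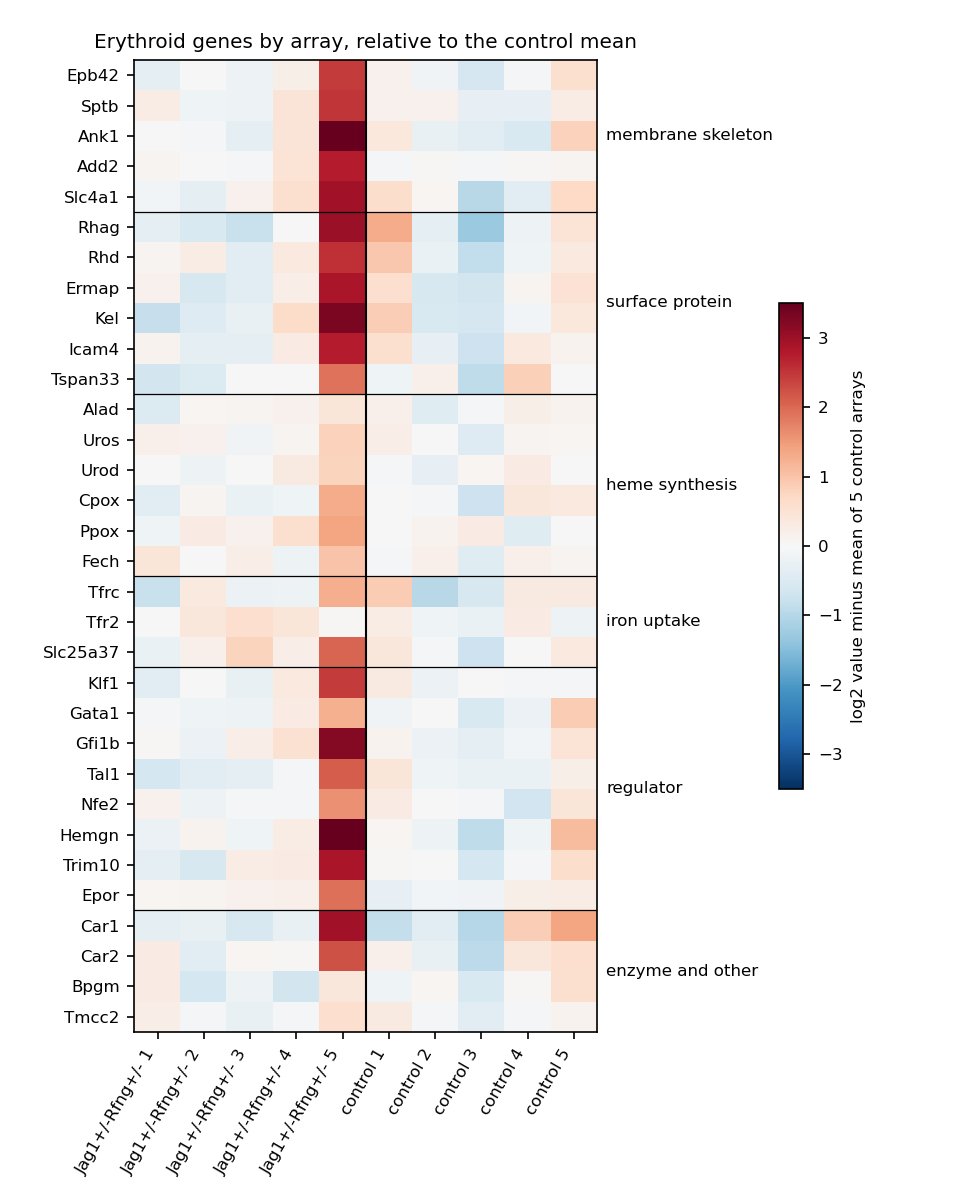
Log2 value of each of the 32 erythroid genes (rows, by class) on each array (columns, Jag1+/-Rfng+/- left of the line and control right of it), minus the gene's mean over the 5 control arrays. The column of Jag1+/-Rfng+/- replicate 5 is red for nearly all genes and pale for Alad, Tfr2 and Bpgm, and control 3 is mostly blue.

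This lean to higher values rested on a single array. Jag1+/-Rfng+/- replicate 5 read above all 9 other arrays for 30 of the 32 genes (14.3% of all genes did so), and 25 of the 32 were at least 2-fold above the mean of the 4 other Jag1+/-Rfng+/- arrays (1.73% of all genes). The 2 exceptions to the first count were Tfr2 and Bpgm. Replicate 5 averaged 2.02 log2 above the control mean over the 32 genes, whereas Jag1+/-Rfng+/- replicates 1 to 4 averaged -0.11, -0.12, -0.08 and 0.18. Without replicate 5 the median difference was -0.02, with 15 genes higher and 17 lower, and 16 of the 32 changed sign. Over all genes, 2901 of 22180 changed sign. The median of the enzymes and others turned to -0.16 without replicate 5, and was 0.02 without control 3, while that of iron uptake was 0.24 without replicate 5. In that fit 0 genes passed the adjusted threshold (0.00902% of all genes did), with a lowest adjusted p of 0.77. At an unadjusted p under 0.05, 1 was higher and 0 lower, against 3.17% and 3.24% of all genes. Of the 128 values of the 4 other Jag1+/-Rfng+/- arrays, 105 (82.0%) lay within the range of the 5 controls for the same gene. Over all genes the share was 68.3%. These shares depend on how wide the control range is, and the median control SD was 0.43 for these genes and 0.21 for all genes.

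**Figure D2:**
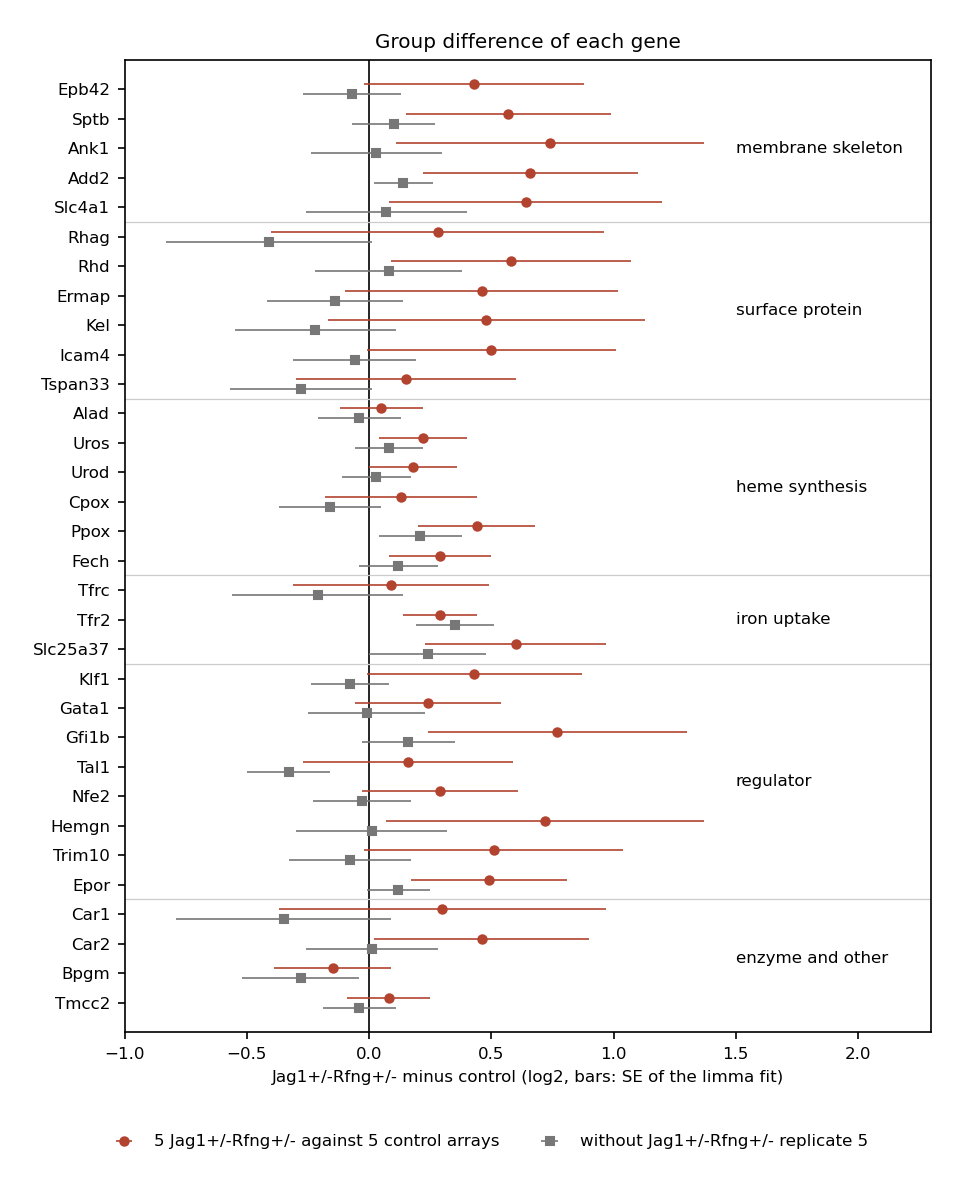
Difference of Jag1+/-Rfng+/- minus control on the log2 scale for each gene, with all 10 arrays (circles) and without Jag1+/-Rfng+/- replicate 5 (squares); bars are the SE of the limma fit. With all arrays, 31 of 32 points lie right of 0, and without replicate 5 the points lie on both sides, 15 right and 17 left.

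The membrane skeleton genes were at least 2-fold above the 4 other Jag1+/-Rfng+/- arrays on replicate 5 in 5 of 5 cases, by 2.39 to 3.57 log2 with a median of 2.60. Slc4a1, which encodes band 3, the anion exchanger to which the skeleton is tied, read 6.99, 6.76, 7.23, 7.65 and 10.04 in Jag1+/-Rfng+/- replicates 1 to 5, against 7.71, 7.17, 6.11, 6.69 and 7.79 in controls 1 to 5. Ank1, the ankyrin that joins band 3 to spectrin, read 4.31, 4.27, 3.99, 4.74 and 7.90 in Jag1+/-Rfng+/-, against 4.66, 4.05, 3.89, 3.77 and 5.12 in controls. Replicate 5 was far above the rest in both, and replicates 1 to 4 lay inside the control range. Sptb, which encodes the beta spectrin chain, read 4.46, 4.04, 4.03, 4.65 and 6.69 in Jag1+/-Rfng+/-, against 4.36, 4.36, 3.92, 3.91 and 4.45 in controls. Add2, the beta adducin that caps the actin of the skeleton, read 3.91, 3.83, 3.77, 4.30 and 6.55 in Jag1+/-Rfng+/-, against 3.74, 3.84, 3.76, 3.84 and 3.91 in controls. Add2 varied by an SD of 0.07 over the 5 controls, and its difference was 0.66 ± 0.44 (SE; limma adjusted p = 0.825) with replicate 5 and 0.14 ± 0.12 (limma adjusted p = 0.91) without it. Epb42, which encodes protein 4.2, averaged 4.30 ± 1.14 in Jag1+/-Rfng+/- and 3.87 ± 0.41 in controls (SD, n = 5 each), and 3.80 ± 0.22 in the 4 other Jag1+/-Rfng+/- arrays. Ank1 has a second probe set, which was 2.61 log2 above the 4 other Jag1+/-Rfng+/- arrays on replicate 5, beside 3.57 for the brighter set. Over the class the median difference was 0.07 without replicate 5.

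Surface protein genes were the class with the highest median on replicate 5, at 2.91 log2 above the 4 other Jag1+/-Rfng+/- arrays (range 2.19 to 3.51, 6 of 6 at least 2-fold). Rhag, the ammonia channel of the Rh complex, read 4.87, 4.64, 4.39, 5.18 and 8.20 in Jag1+/-Rfng+/-, against 6.49, 4.85, 3.89, 5.00 and 5.67 in controls. Rhd, the other Rh protein, read 5.02, 5.18, 4.55, 5.27 and 7.49 in Jag1+/-Rfng+/-, against 5.85, 4.68, 4.06, 4.76 and 5.27 in controls. Control 1 was the highest of the other 9 arrays and control 3 the lowest in both, so the spread among controls was wide as well. Icam4, an adhesion molecule of the Landsteiner-Wiener blood group, read 3.84, 3.40, 3.42, 4.02 and 6.48 in Jag1+/-Rfng+/-, against 4.29, 3.43, 3.00, 4.08 and 3.84 in controls. Kel, the endopeptidase that carries the Kell blood group, was 3.51 log2 above the 4 other Jag1+/-Rfng+/- arrays on replicate 5, Ermap of the Scianna group 3.01, and the tetraspanin Tspan33 2.19. Without replicate 5, 5 of the 6 surface genes had a lower mean in Jag1+/-Rfng+/-, with a median difference of -0.18 and -0.41 ± 0.42 for Rhag (SE; limma adjusted p = 0.927).

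Regulators were high on replicate 5 as well, with 8 of 8 at least 2-fold above the 4 other Jag1+/-Rfng+/- arrays, by 1.26 to 3.56 log2 and a median of 2.48. Gata1 and Tal1 lay at or below 2.91 on 3 of those 4 arrays, so their differences may be understated, and the 6 other regulators ran from 1.62 to 3.56 with a median of 2.73, a split made after the values were seen. Klf1, the zinc finger factor of the globin and membrane genes, read 4.07, 4.50, 4.21, 4.83 and 6.93 in Jag1+/-Rfng+/-, against 4.79, 4.27, 4.50, 4.41 and 4.45 in controls. Gata1, the factor without which erythroblasts do not mature, read 2.58, 2.48, 2.45, 2.92 and 3.87 in Jag1+/-Rfng+/-, against 2.49, 2.60, 2.08, 2.42 and 3.52 in controls. Gata1 was thus near the level of absent genes on most arrays, and replicate 5 and control 5 were the highest. Gfi1b, a repressor needed for red cell and platelet formation, read 4.70, 4.46, 4.90, 5.20 and 7.86 in Jag1+/-Rfng+/-, against 4.78, 4.46, 4.32, 4.57 and 5.14 in controls. Epor, the erythropoietin receptor, read 4.14, 4.17, 4.23, 4.26 and 6.01 in Jag1+/-Rfng+/-, against 3.80, 3.99, 3.96, 4.29 and 4.35 in controls. Replicates 1 to 4 spanned an SD of 0.06 for Epor, and replicate 5 was 1.80 log2 above their mean. Hemgn, a nuclear protein of blood progenitors, read 3.90, 4.22, 3.94, 4.37 and 7.66 in Jag1+/-Rfng+/-, against 4.18, 3.93, 3.22, 3.95 and 5.20 in controls. Of the others, Trim10 was 2.94 log2 above the 4 other Jag1+/-Rfng+/- arrays on replicate 5, Tal1, a partner of GATA1, 2.44, and Nfe2, a factor of globin expression, 1.62. Without replicate 5 the regulators had a median difference of -0.02, and Tal1 was lower by 0.33 ± 0.17 in Jag1+/-Rfng+/- (SE; limma adjusted p = 0.811), with 5 arrays at or below 2.91.

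Heme synthesis genes were also highest on replicate 5 in 6 of 6 cases, but by less than the membrane genes: 0.46 to 1.45 log2 (1.37- to 2.74-fold), with a median of 0.82 and 2 of 6 at least 2-fold. This range does not meet that of the membrane skeleton genes, whose lowest value was 2.39. Ppox, which oxidises protoporphyrinogen, read 5.49, 5.92, 5.77, 6.19 and 7.0 in Jag1+/-Rfng+/-, against 5.61, 5.74, 5.93, 5.21 and 5.65 in controls. Cpox, which acts a step before it, read 6.55, 7.0, 6.68, 6.76 and 8.20 in Jag1+/-Rfng+/-, against 6.92, 6.87, 6.19, 7.32 and 7.24 in controls. Replicate 5 led in both, and replicates 1 to 4 mostly lay among the controls. Fech, which inserts iron to make heme, read 7.24, 6.82, 7.03, 6.63 and 7.81 in Jag1+/-Rfng+/-, against 6.77, 6.99, 6.39, 6.98 and 6.91 in controls. Alad, which joins aminolevulinate into porphobilinogen, was 0.46 log2 above the 4 other Jag1+/-Rfng+/- arrays on replicate 5, Uros, the uroporphyrinogen III synthase, 0.74, and Urod, the decarboxylase after it, 0.75. Ppox had the lowest unadjusted p of the class, with a difference of 0.44 ± 0.24 (SE; limma adjusted p = 0.775) with replicate 5 and 0.21 ± 0.17 (limma adjusted p = 0.899) without it. The class median was 0.05 without replicate 5. Over the 10 arrays the heme genes had a median SD of 0.35, against 0.86 for the membrane skeleton, 1.00 for surface proteins and 0.79 for regulators.

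**Figure D3:**
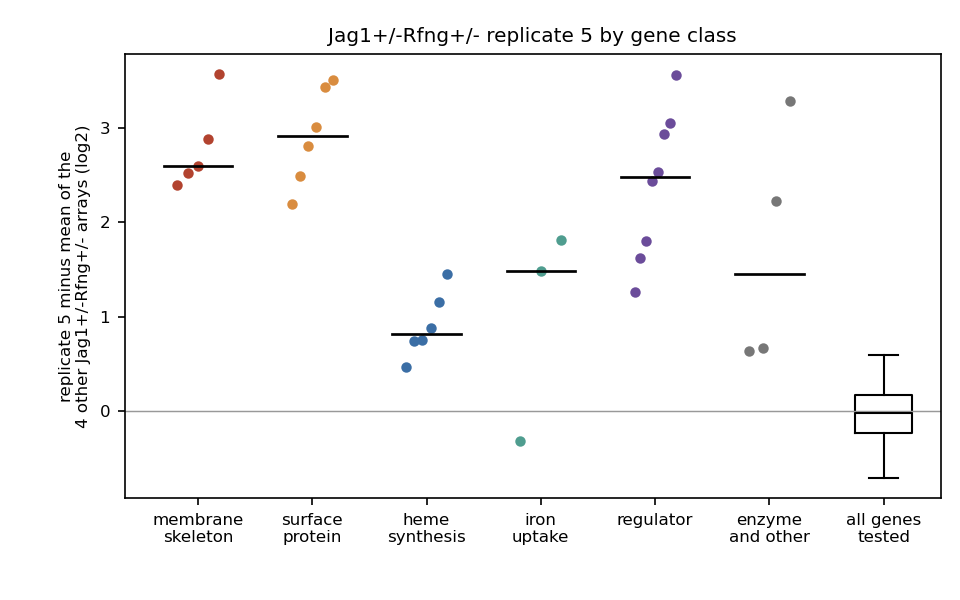
Log2 value on Jag1+/-Rfng+/- replicate 5 minus the mean of the 4 other Jag1+/-Rfng+/- arrays, by class (points, genes; short lines, class medians), beside all 22180 genes (box, quartiles; whiskers, 5th and 95th percentiles). Heme synthesis genes sit at 0.46 to 1.45 and the membrane skeleton at 2.39 to 3.57, while the median of all genes is -0.02.

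Iron uptake split. Slc25a37, the mitoferrin that carries iron into mitochondria, read 6.87, 7.29, 7.88, 7.34 and 9.16 in Jag1+/-Rfng+/-, against 7.51, 7.04, 6.39, 7.13 and 7.46 in controls. Tfrc, the receptor through which erythroblasts take up transferrin iron, read 6.55, 7.65, 7.11, 7.14 and 8.60 in Jag1+/-Rfng+/-, against 8.22, 6.34, 6.77, 7.64 and 7.64 in controls. Both were highest on replicate 5, by 1.81 and 1.48 log2 over the 4 other Jag1+/-Rfng+/- arrays. Tfr2, which senses iron-loaded transferrin in hepatocytes and erythroblasts, was the exception and read 8.22, 8.59, 8.79, 8.63 and 8.24 in Jag1+/-Rfng+/-, against 8.47, 8.06, 7.96, 8.50 and 8.02 in controls. Replicate 5 minus the mean of the 4 other Jag1+/-Rfng+/- arrays was -0.32. Without replicate 5 Tfr2 differed by 0.35 ± 0.16 (SE) with an unadjusted limma p of 0.0462, an adjusted limma p of 0.77 and an exact permutation p of 0.0714 (two-sided), and it was the 1 member with an unadjusted p under 0.05 there.

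Car1, a carbonic anhydrase of red cells, read 3.51, 3.56, 3.26, 3.58 and 6.77 in Jag1+/-Rfng+/-, against 2.99, 3.44, 2.83, 4.69 and 5.21 in controls. Car2, its relative, which is also made in other cells, read 7.52, 6.84, 7.29, 7.26 and 9.46 in Jag1+/-Rfng+/-, against 7.40, 6.96, 6.30, 7.61 and 7.81 in controls. Replicate 5 was highest in both, and for Car1 controls 4 and 5 also read above the rest. Bpgm, which makes the bisphosphoglycerate that lowers oxygen affinity of haemoglobin, read 4.47, 3.56, 4.00, 3.55 and 4.57 in Jag1+/-Rfng+/-, against 4.03, 4.26, 3.65, 4.21 and 4.74 in controls, so control 5 was above replicate 5. Tmcc2 was 0.64 log2 above the 4 other Jag1+/-Rfng+/- arrays on replicate 5, and its second probe set 0.79.

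**Figure D4:**
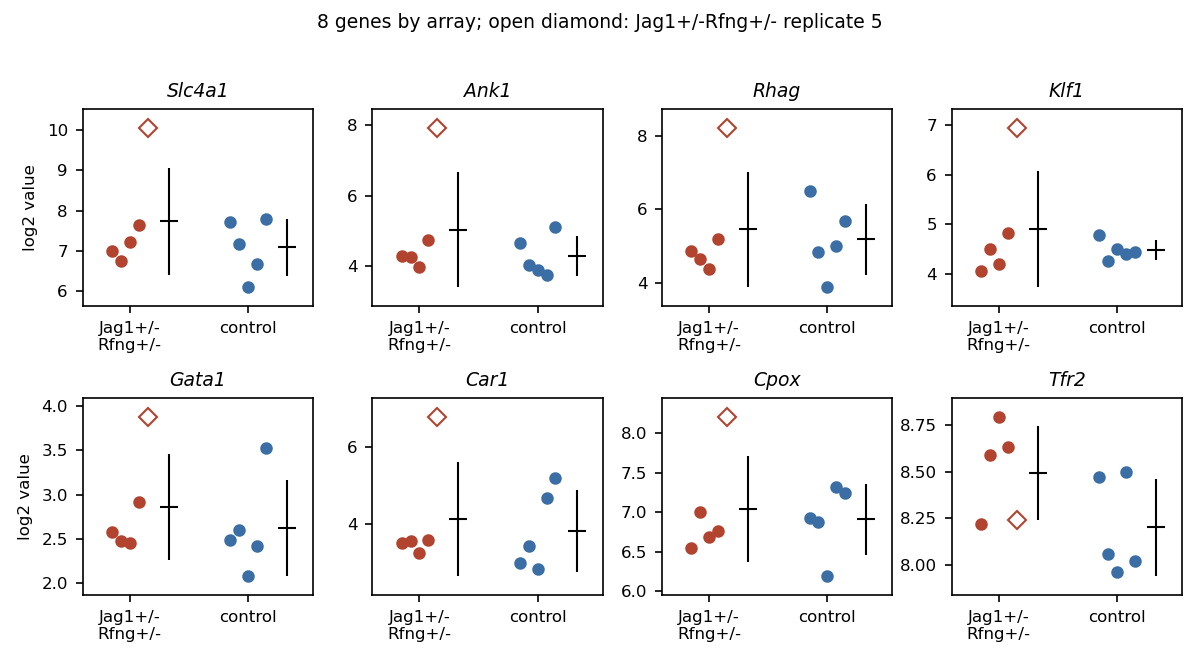
Log2 value on each array for 8 genes, Jag1+/-Rfng+/- (red, left) and control (blue, right); the open diamond is Jag1+/-Rfng+/- replicate 5, and the bars beside the points are mean and SD over 5 arrays. The diamond is above every other point in all panels except Tfr2, where it reads 8.24 among 8.22 to 8.79 for the other Jag1+/-Rfng+/- arrays.

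As a set, the erythroid genes also varied among the other 9 arrays, with a larger median SD than all genes tested. Their median SD over the 5 controls was 0.43, against 0.21 for all genes, but only 0.26 for heme synthesis. Over the Jag1+/-Rfng+/- arrays it was 1.06 with replicate 5 and 0.29 without it, against 0.21 and 0.18 for all genes. All genes include many dim ones: 9719 of 22180 had an array at or below 2.91, against 4 of the 32. Relative to the control mean, the 32 genes averaged 0.24, -0.15, -0.49, 0.03 and 0.38 in controls 1 to 5. Among the 9 arrays the highest value fell on control 5 for 11 genes, control 1 for 9 and Jag1+/-Rfng+/- replicate 4 for 6, and the lowest fell on control 3 for 19. Controls 1 and 5 and Jag1+/-Rfng+/- replicate 4 are 3 of the 4 arrays with high Xist, the fourth being Jag1+/-Rfng+/- replicate 3 at -0.08; the part of sex in these values was not tested. Over the 5 controls Add2 and Klf1 had SDs of 0.07 and 0.19, while Car1 and Rhag had SDs of 1.06 and 0.97.

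Because replicate 5 lies apart from the rest, the genes' joint variation was read over the other 9 arrays, with Slc4a1 as the gene to which the 31 others were set. Pearson's r with Slc4a1 had a median of 0.63 over the 31, against -0.01 over all genes, and 30 of 31 were positive. By class the median r was 0.79 for the membrane skeleton, 0.74 for surface proteins, 0.70 for regulators, 0.49 for the enzymes and others, 0.36 for iron uptake and 0.25 for heme synthesis. Trim10 (r = 0.84, rho = 0.90) and Gfi1b (r = 0.84, rho = 0.83) were highest, and Urod (r = -0.01, rho = -0.07) was lowest. With exact permutation p-values adjusted over all 22179 other genes, 0 of the 31 passed (0% of all genes did), the raw exact permutation p of Trim10 being 0.005 and its adjusted p 1. The orders of 9 arrays are too few for a single gene to pass this adjustment on its own. That count of 0 therefore cannot decide whether the members vary with Slc4a1. Without control 3 and control 5, the 2 of these 9 arrays farthest from the Slc4a1 median, the median r was 0.42. By class it was then 0.64 for the membrane skeleton, 0.54 for surface proteins, 0.64 for regulators, -0.10 for the enzymes and others, 0.15 for iron uptake and 0.11 for heme synthesis. The relation of the enzymes and others to Slc4a1 thus rests on those 2 arrays. With replicate 5 included the median r was 0.89, so that value rests on 1 array. Over the 10 arrays the 10 genes most like Slc4a1 held 6 members: Trim10 (r = 0.963), Epb42 (0.959), Ank1 (0.954), Hemgn (0.954), Gfi1b (0.951) and Sptb (0.945). The 4 others were Cldn13 (0.956), Slfn14 (0.955), Mogat1 (0.943) and 2810425M01Rik (0.943). Over the 9 arrays, 0 of the 10 most like Slc4a1 were members, with Scn1a at 0.95 and Metrn at 0.948 first.

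**Figure D5:**
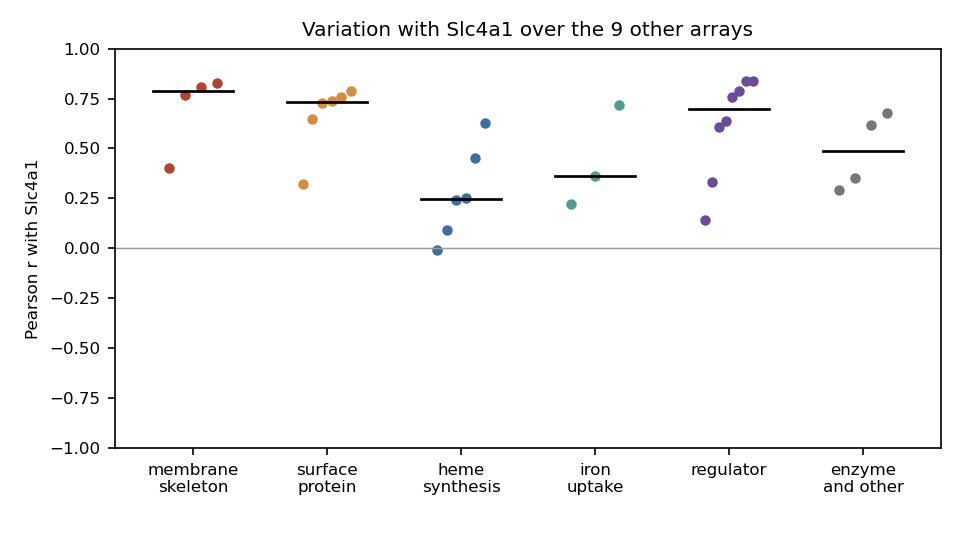
Pearson r of each gene with Slc4a1 over the 9 arrays without Jag1+/-Rfng+/- replicate 5, by class (points, 31 genes; short lines, class medians). Median r is 0.79 for the membrane skeleton, 0.74 for surface proteins and 0.70 for regulators, and 0.25 for heme synthesis.

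Other genes of the red cell, from separate lists, were read the same way on replicate 5. Of 13 other erythroid membrane genes 7 read above the 9 other arrays, among them Tspo2 (5.27), Tmod1 (4.97), Dmtn (5.99) and Xk (5.61), and 5 of 13 were at least 2-fold above the 4 other Jag1+/-Rfng+/- arrays. Cd59a, of the same list, did not follow: it read 6.61 to 7.16 in Jag1+/-Rfng+/- and 5.89 to 6.58 in controls, and its difference was 0.57 (limma adjusted p = 0.413). Of 9 genes of late maturation 7 were above the 9 other arrays, Trim58 (4.33) and Ypel4 (7.44) by at least 2-fold over the 4 other Jag1+/-Rfng+/- arrays. Of 15 other heme and mitochondrial iron genes 4 were above, Tmem14c (8.83) and Abcb10 (6.53) among them. Of 19 other blood lineage regulators 9 were, E2f2 (5.79), Klf3 (8.21) and Zfpm1 (5.79) among them. Over all genes the share above was 14.3%, as given before. At least 2-fold over the 4 other Jag1+/-Rfng+/- arrays were 2 of the 15 and 1 of the 19, against 1.73% of all genes. The median of replicate 5 minus those arrays was 0.10 log2 for the 15 and 0.25 for the 19. Fewer read below the 9 other arrays on replicate 5: of these lists Bcam (4.90) did among 13 membrane genes, Ireb2 (5.62) and Aco1 (7.01) among 15 heme and iron genes, Stat5b (5.41) among 19 regulators and 0 of 9 late maturation genes, against 17.2% of all genes. The 3 globin genes measured, Hba-x, Hbb-bh1 and Hbb-y, all embryonic, lay at 1.61 to 2.54, below the top of the absent range, on all 10 arrays. Adult globins were not analysed here.

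Markers of other cell types were read beside these results, and their part in them was not tested. Megakaryocyte and platelet genes, whose lineage also uses GATA1 and GFI1B, were above the 9 other arrays on replicate 5 in 0 of 9 cases, and averaged 0.45 above the control mean there, against -0.92 to 0.44 in the 4 other Jag1+/-Rfng+/- arrays and -0.72 to 0.50 in controls. Mast cell and eosinophil genes were above in 0 of 9 and averaged 0.00 on replicate 5, against -0.10 to 0.25 in the 4 other Jag1+/-Rfng+/- arrays and -0.16 to 0.20 in controls, and 9 of 9 were at or below 2.91 on at least 1 array, with Cpa3 there on 9 of 10. Island macrophage genes were above in 2 of 12 and below in 2 of 12 on replicate 5. They averaged 0.08 there, against 0.14 to 0.67 in the 4 other Jag1+/-Rfng+/- arrays and -0.30 to 0.31 in controls. The 2 below were Adgre1 (5.00) and Timd4 (4.50), at -1.88 and -1.79 log2 from the mean of the 4 other Jag1+/-Rfng+/- arrays. The 2 above were Cd163 and C1qb, at 0.64 and 0.76 log2 from that mean. Cd163 lay at or below 2.91 on 5 arrays. Proliferation genes were above in 6 of 11 and averaged 0.58, against -0.40 to -0.03 in the 4 other Jag1+/-Rfng+/- arrays and -0.30 to 0.18 in controls, and included Mki67 (9.13) and Rrm2 (8.25). Hepatocyte genes averaged 0.12 there, against -0.13 to 0.07 in the 4 other Jag1+/-Rfng+/- arrays and -0.27 to 0.10 in controls, with 3 of 12 above and 4 of 12 below, and Alb read 12.08 to 12.27 over the 10 arrays. Endothelial genes averaged -0.08, against -0.07 to 0.35 in the 4 other Jag1+/-Rfng+/- arrays and -0.16 to 0.20 in controls. Of the megakaryocyte and platelet genes, 2 of 9 were at least 2-fold above the 4 other Jag1+/-Rfng+/- arrays on replicate 5. So were 3 of 11 proliferation and 1 of 12 hepatocyte genes there, against 1.73% of all genes. Of the megakaryocyte and platelet, proliferation and hepatocyte genes, 0 were at least 2-fold lower on replicate 5. Of the island macrophage genes 2 of 12 were, against 386 of all 22180 genes. The biliary genes averaged -0.85 there, against -1.01 to -0.23 in the 4 other Jag1+/-Rfng+/- arrays and -0.37 to 0.58 in controls, and Krt19, which marks bile ducts, read 4.07 to 4.71 in Jag1+/-Rfng+/- and 4.52 to 5.90 in controls. Portal fibroblast genes averaged -1.70 on replicate 5, with Dpt at 2.63, which is within the absent range. They averaged -1.55 to -0.14 in the 4 other Jag1+/-Rfng+/- arrays and -0.80 to 0.57 in controls. The -1.55 was Jag1+/-Rfng+/- replicate 1, where the 32 erythroid genes averaged -0.11. Hamp, the iron hormone hepcidin, read 1.85 on replicate 5, within the absent range, and 5.72 to 11.76 on the other 9 arrays. Erfe, the erythroblast hormone that lowers hepcidin, read 5.84 on replicate 5 and 4.87 to 5.39 on the other 9. The values of Cpa3, Dpt, Timd4, Adgre1, Mki67, Rrm2, Hamp, Tspo2, Tmod1, Dmtn, Xk, Tmem14c, E2f2, Ireb2, Aco1, Stat5b and Alb were picked for naming after they were seen. So were those of Cd163 and C1qb.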

How the data were processed

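The log2 values, for 33649 probe sets, were deposited by the authors. The submitters' processing notes name RMA and Partek 6.6 without saying what each did. RMA usually compresses the folds of dim genes. Symbols came from the platform annotation, in which 23521 probe sets have 1 symbol, 1814 several and 8314 none. Sample titles gave the group and the replicate number. Array data have no depth, and the number of arrays limits precision.

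The groups were compared with limma 3.58.1 (R 4.3.3), without covariate, two-sided, on all 22180 genes with Benjamini-Hochberg adjustment at 0.05, after tests on simulated data. No filter on dim genes was used. The plan set members against Alas2, which was not measured under the rule, so Slc4a1 took its place, over the 9 arrays without the one that stands apart; both choices were made after the data were seen. Correlations used permutations, all orders up to 9 arrays. Their p-values were adjusted over all genes, where the plan adjusted over the members. Promoter windows are RefSeq's.

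The genes were chosen with earlier results of these data known. The genes given by array are, per class, the 2 with the lowest unadjusted p and the one with the largest SD, plus Slc4a1, Klf1, Gata1, Tfrc, Car1 and Car2. Of the other lists the rule takes the 2 genes with the lowest p, and of these the ones a result turns on are named. Alternatives left out each array, used other normalizations, the 7 arrays with a shared number in their sample names, array weights, a replicate block, trend and robust eBayes, brighter genes and mean probe sets. Arrays with the same replicate number in their titles did not deviate together (correlations of their deviations -0.06, 0.03, 0.02, -0.23 and 0.06 for numbers 1 to 5), so the replicate numbers do not pair them. The sample-name number is another label, examined only through those 7 arrays.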

Additional observations from a re-analysis of the deposited data

Results flagged for a closer look

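Jag1+/-Rfng+/- replicate 5 lay far above the 4 other Jag1+/-Rfng+/- arrays, by Dixon's test of a gap against the range of the group, for 20 of the 32 erythroid genes, and 0 of the 32 control groups had such an array. Chance flags about 1 in 20 groups. Over all genes 6.86% of groups had such an array, and replicate 5 was that array in 3.7% of the Jag1+/-Rfng+/- groups. Its log2 values were these. Among the membrane skeleton it read Epb42 (6.32), Sptb (6.69), Ank1 (7.90), Add2 (6.55) and Slc4a1 (10.04). Among the surface proteins it read Rhag (8.20), Rhd (7.49), Ermap (7.67), Icam4 (6.48) and Tspan33 (6.92). In heme synthesis it read Cpox (8.20). Among the regulators it read Klf1 (6.93), Gfi1b (7.86), Tal1 (5.17), Nfe2 (5.08), Hemgn (7.66), Trim10 (6.75) and Epor (6.01). Among the enzymes and others it read Car1 (6.77) and Car2 (9.46). The same test marked replicate 5 as high for Klf3 (8.21), Tmod1 (4.97), Dmtn (5.99), Tmem14c (8.83), E2f2 (5.79) and Mki67 (9.13), and, of the control arrays, replicate 5 as high for the endothelial gene Kdr (7.0) and replicate 2 as low for Hbb-y (1.65), which is in the absent range. No cause was tested.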

How the results depend on the processing

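The count of erythroid genes past the adjusted threshold was 0 under each of the alternatives run, with lowest adjusted limma p-values of 0.572 to 0.87. Leaving out each array in turn, the median difference of the 32 genes ran from -0.02 to 0.55, of the membrane skeleton from 0.07 to 0.82, of heme synthesis from 0.05 to 0.27 and of regulators from -0.02 to 0.61. The lowest of each came without Jag1+/-Rfng+/- replicate 5. In the 7 arrays that share a sample-name number the median over the 32 was 0.72, and without replicate 5 it was 0.17, with 0.24 for the membrane skeleton. Array weights gave 0.21. With the replicate block the median was 0.43 and 0 genes passed, and the block changed no call. The count at an unadjusted limma p under 0.05, which was 0, was 3 without Jag1+/-Rfng+/- replicate 1. It was 1 without Jag1+/-Rfng+/- replicate 5, control 1 or control 4. It was also 1 with quantile normalization, array weights or the 7 arrays, and 2 in those arrays without replicate 5. Of all genes, 2.98% were higher and 3.79% lower at this threshold with every array included. Without Jag1+/-Rfng+/- replicate 5 these shares were 3.17% and 3.24%. The all-gene share was not worked out for the other settings, so their counts cannot be set against a background. The median r with Slc4a1, 0.63, ran from 0.40 (without control 3) to 0.73 leaving out each of the 9 arrays. It was 0.89 with replicate 5. In all of these 0 genes passed. With 9 arrays or fewer no single gene could pass on its own, because the orders are too few. With replicate 5 included, the random orders drawn were too few for that. The correlation with Alas2 was not run. Genes near the absent range, Gata1 and Tal1 above all, may show compressed differences, which was not tested.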
